A study of Mus musculus with 6 samples.

Results

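The transcription factor p53 and 36 of its direct target genes were followed in primary lung endothelial cells of mice labelled knockout (KO) or wild type (WT) for Zmpste24, the protease that completes the maturation of prelamin A. The 37 genes were taken by symbol from a list of p53 and known direct targets. Their means had to reach 10 normalized counts, read counts divided by a size factor of each library, over the 6 libraries. All 37 did, among 53735 rows of the table and 15229 that reach that mean. KO libraries were 4 (KO1 to KO4) and WT libraries 2 (WT1 and WT2), all poly(A) RNA of untreated cells sorted with beads against CD31 and ICAM2 and grown to confluence without passage. The mice came from 2 cohorts, which the labels tie to no sample. Their allele, strain, age and number are not stated, nor whether a library stands for 1 animal, so the p-values reflect variation among libraries that can be technical in part.

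p53 is kept low in unstressed cells by Mdm2, a ubiquitin ligase that p53 itself induces. DNA damage and other stresses stabilise p53, which then binds its response elements and raises genes of growth arrest, cell death, DNA repair and metabolism. In mice lacking Zmpste24, raised p53 target expression has been described in other tissues, and senescence of endothelium is one setting in which p53 is studied.

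The 6 libraries held 32699024 to 45613685 reads. Zmpste24 itself had 5079, 3764, 3599 and 3720.4 counts in KO1 to KO4, against 5503 and 4148 in WT1 and WT2 (KO minus WT -0.26 ± 0.20 on the log2 scale, SE; adjusted p = 1.00 in limma). Which part of the gene is deleted is not stated, so this count does not check the genotype labels. KO1 and WT1 stood apart from the other 4 libraries in the first principal component, which was computed without the genes described here and held 77.0% of the variance. KO1 and WT1 are called the first library set, and KO2, KO3, KO4 and WT2 the second; whether they are the 2 cohorts is not stated. The 12 endothelial markers, all expressed, summed to 116627 and 198164 in KO1 and WT1 and 42109.9 to 68438 in the other 4 libraries, and 10 of the 12 were higher in both KO1 and WT1 than in every other library. The sums of 12 macrophage markers were 1509 and 1886 in KO1 and WT1 and 28869 to 47221 in the other 4 libraries. For 8 contractile genes they were 225433 and 244516 in KO1 and WT1 and 60277 to 109551 in the other 4 libraries. For 8 mesothelial genes they were 82653 and 37677 in KO1 and WT1 and 10264 to 20877 in the other 4 libraries. For 8 fibroblast genes they were 409839 and 429559.9 in KO1 and WT1 and 440863 to 484102 in the other 4 libraries. Both KO1 and WT1 were above every other library for 7 contractile and 5 mesothelial genes, and below for 0 of either list. The fibroblast sums hide a split, with 2 genes above and 4 below. Over all tested genes the shares were 30.7% above and 32.7% below. Of 8 epithelial markers 4 reached the mean, with sums of 34.9 and 33.5 in KO1 and WT1 and 209 to 487 in the other 4 libraries. In such bulk samples, fewer cells of a type and less RNA per cell cannot be told apart. All 12 endothelial markers were below 0 and all 12 macrophage markers above 0 in the difference KO minus WT, with medians of -0.77 and 1.33 (log2, genotype alone). With the library set in the fit the medians were -0.48, 12 of 12 below 0, and 0.17, 9 above 0 and 3 below. Without WT1 they were 0.0053, 6 above 0 and 6 below, and -0.65, 1 above 0 and 11 below. That fit has genotype alone and sets KO1 against WT2, a library of the other set. With KO1 left out too, KO2, KO3 and KO4 against WT2 gave an endothelial median of -0.37, 2 above 0 and 10 below. The macrophage median was then 0.42, 11 above 0 and 1 below. Both medians then had the same sign as with all libraries. limma with genotype alone called 0 of either marker list, against 0.00657% of all tested genes. Of the endothelial and macrophage markers, 2 and 0 had an unadjusted p under 0.05 in that fit, against 0.939% of all tested genes. With the set, a term drawn from these same libraries, 6 and 1 did in limma, all lower in KO, against 3.51%. DESeq2 with that term called 2 endothelial markers lower, against 0.328% of all tested genes called in either direction. The part of cell makeup in the results below was not tested.

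The promoter sequences at hand were searched for the p53 half-site consensus, the decamer that p53 binds as a pair. Response elements outside the windows described next, such as in introns, were not searched. RefSeq windows of 300 bases, from 250 before to 50 after a RefSeq transcript start (GRCm38.p6), some genes having several, were at hand for 29 of the 37 genes. Of those 29, 11 (37.9%) held an exact half-site in at least 1 window, against 9.55% of all 27025 genes with a window. By window, 12 of 42 (28.6%) held one, against 8.36% of all 32851 windows. The pattern is its own reverse complement, so both strands were read. A pair of exact half-sites within 13 bases of each other was in 0 of the 29, and in 0.0740% of all genes. The genes were listed as p53 targets from other work, so the share describes the list. The 30-base windows around each half-site, in the direction of the gene, are shown because they are the letters these promoters share, with the half-site in capitals. The windows lie at chr3:137623572-137623601 for Ddit4l (plus strand), chr6:67037428-67037457 for Gadd45a (minus strand), chr7:45467080-45467109 for Bax (minus strand), chr7:78895927-78895956 for Aen (plus strand), chr9:36797325-36797354 for Ei24 (minus strand), chr10:41887256-41887285 for Sesn1 (plus strand), chr10:117710925-117710954 for Mdm2 (minus strand), chr11:40755452-40755481 for Ccng1 (minus strand), chr11:69580274-69580303 for Trp53 (plus strand), chr13:96519399-96519428 for Polk (minus strand) and chr14:54259274-54259303 for Abhd4 (plus strand). The first base of the half-site lay between position -231 (Polk) and position 11 (1 of 2 windows of Aen) from the transcript start that the window is built on. For Sesn1, Polk, Abhd4 and Ddit4l that start lies inside the gene as GENCODE M21 annotates it, 77504, 23392, 5095 and 2060 bases from its outermost start, and for the other 7 genes at most 204 bases from it.
Ddit4l: caactcccagGGGCTTGCCTgggcccctgc
Gadd45a: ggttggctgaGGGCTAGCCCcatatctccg
Bax: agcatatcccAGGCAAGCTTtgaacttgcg
Aen: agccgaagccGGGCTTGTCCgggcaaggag
Ei24: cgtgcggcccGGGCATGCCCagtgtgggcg
Sesn1: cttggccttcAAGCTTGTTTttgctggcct
Mdm2: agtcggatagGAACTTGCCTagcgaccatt
Ccng1: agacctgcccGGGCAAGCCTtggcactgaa
Trp53: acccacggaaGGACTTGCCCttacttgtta
Polk: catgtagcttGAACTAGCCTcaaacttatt
Abhd4: cgacccggcaGGGCTTGTTTactatggctg

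The promoters of Trp53, Mdm2 and Ccng1 are given whole because these genes form the feedback loop described first below, again with the half-site in capitals. They lie at chr11:69580109-69580408, plus strand, chr10:117710709-117711008, minus strand and chr11:40755237-40755536, minus strand.
Trp53: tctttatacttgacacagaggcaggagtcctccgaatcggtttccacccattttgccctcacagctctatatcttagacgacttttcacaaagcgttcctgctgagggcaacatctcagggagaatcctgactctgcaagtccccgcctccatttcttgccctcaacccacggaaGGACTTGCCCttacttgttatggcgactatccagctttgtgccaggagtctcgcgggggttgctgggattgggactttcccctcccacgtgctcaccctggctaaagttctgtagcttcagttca
Mdm2: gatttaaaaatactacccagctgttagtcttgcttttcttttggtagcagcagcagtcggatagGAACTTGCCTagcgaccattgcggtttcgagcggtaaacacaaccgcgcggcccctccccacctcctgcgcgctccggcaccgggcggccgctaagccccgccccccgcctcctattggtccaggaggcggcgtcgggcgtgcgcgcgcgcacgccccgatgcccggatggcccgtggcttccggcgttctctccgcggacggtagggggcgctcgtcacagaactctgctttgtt
Ccng1: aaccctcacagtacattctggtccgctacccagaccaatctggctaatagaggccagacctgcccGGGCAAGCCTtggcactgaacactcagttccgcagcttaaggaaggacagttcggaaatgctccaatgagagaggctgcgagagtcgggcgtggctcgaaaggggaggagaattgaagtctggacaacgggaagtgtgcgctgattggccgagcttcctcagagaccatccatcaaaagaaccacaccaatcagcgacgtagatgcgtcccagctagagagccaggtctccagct

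A match is a description of letters and not a binding site. Of all tested genes, 30.7% were higher in both KO1 and WT1 than in all other libraries, and 32.7% lower. Among the 11 genes with a half-site, 7 were higher in this way, 2 lower and 2 neither. Among the 18 without one, 13 were higher, 2 lower and 3 neither. Their median log2 differences between KO and WT, from the fit with the set as a term described below, were 0.031 with and -0.011 without a half-site.

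The comparison the design implies is KO against WT, and here none of the 37 genes passed it. limma on log2(normalized count + 1) with genotype alone called 0 of 37, higher or lower, at an adjusted p of 0.05, and 0 of 37 reached an unadjusted p of 0.05. Of all tested genes 0.00657% were called, and 0.939% had an unadjusted p under 0.05. The median log2 difference was -0.090 over the 37 genes, 11 above 0 and 26 below, and 0.00074 over all genes. Without WT1 the median over the 37 was 0.10 and without WT2 -0.29, so its sign depends on which WT library is present. Each of these fits sets KO libraries of both library sets against a WT library of 1 set. In the second set alone the median was 0.0074.

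Because the 2 library sets each hold both genotypes, the set can be entered as a term. The sets were drawn from the expression of these same libraries, so p-values and intervals with that term may overstate precision. With the set in the fit, the median difference of the 37 was -0.016, 15 above 0 and 22 below. limma then called 0 of 37, against 0.00657% of all genes, and 2 of 37 (Trp53inp1 and Ercc5, both higher in KO) had an unadjusted p under 0.05, against 3.51% of all genes, 1.39% higher and 2.12% lower in KO. The same pair was under 0.05 in DESeq2 with that term, against 3.66% of all genes, 1.5% higher and 2.16% lower. edgeR and DESeq2 on the recovered reads called 0 of 37 as well, with genotype alone (backgrounds 0.00657% and 0.0463%) and with the set as a term (0.0131% and 0.328%). Every limma and edgeR adjusted p of the 37 was 0.999 or higher. The lowest adjusted p among the 37 in any of these fits was 0.130, for Trp53inp1 in DESeq2 with the set as a term. The 95% intervals of the fit with genotype alone lay within a 2-fold change in either direction for 22 of the 37 genes, and those of the fit with the set as a term for 34 of 37. The exceptions with that term were Fas, Perp and Gdf15. These intervals are not adjusted for the number of genes, so they do not mark the size of difference that would be called. Trp53inp1, at 0.41 with the set as a term (95% interval 0.17 to 0.64), had a limma adjusted p of 0.999.

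**Figure D1:**
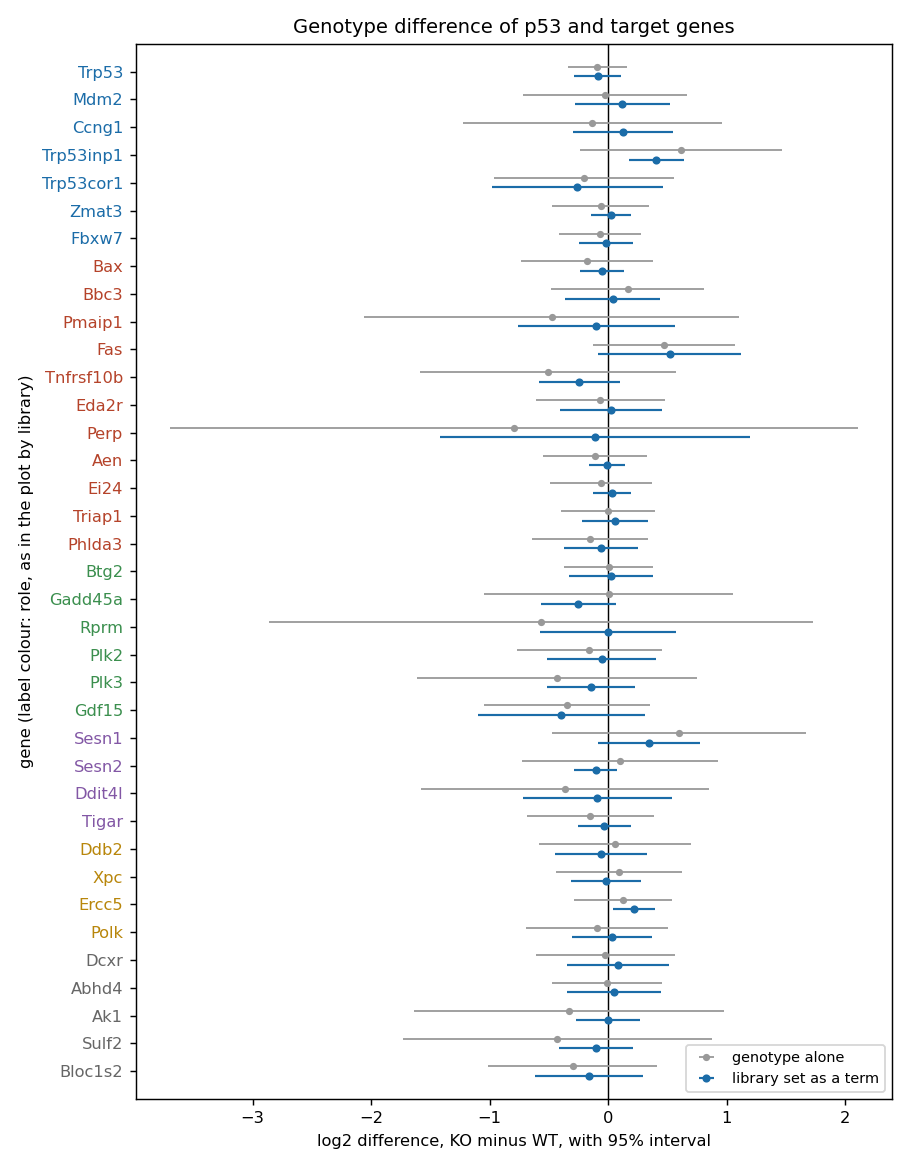
Log2 difference between KO and WT libraries for p53 and 36 target genes (x axis, log2(normalized count + 1) scale), with 1 row per gene coloured by role. Grey points are limma fits with genotype alone and blue points fits that add the library set, with bars for 95% intervals. The blue intervals cross 0 for all genes but Trp53inp1 and Ercc5, and 0 of 37 passed after adjustment over all tested genes.

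No gene of the 37 had KO and WT ranges that did not overlap, against 4.68% of all tested genes, 2.36% with KO higher and 2.32% with KO lower. Set against the WT library of the same set, all 4 KO libraries were higher for Trp53inp1, Fas, Sesn1 and Ercc5, 4 of 37 genes (10.8%; 10.1% of all tested genes). All 4 were lower for Tnfrsf10b and Sesn2, 2 of 37 (5.41%; 10.8% of all tested genes). Both shares are near or under the background, and KO2, KO3 and KO4 share WT2. The median difference of the 37 genes was -0.028 for KO1 minus WT1, and -0.15, 0.094 and 0.0066 for KO2, KO3 and KO4 minus WT2. In KO2, 26 of the 37 genes were below WT2, while in KO3 12 were. The summed dividing-cell genes, 10 in all, also differed among these libraries, with 10676 counts in KO2, 18543 in KO3, 30344 in KO4 and 20600.1 in WT2, and their part in these medians was not tested.

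**Figure D2:**
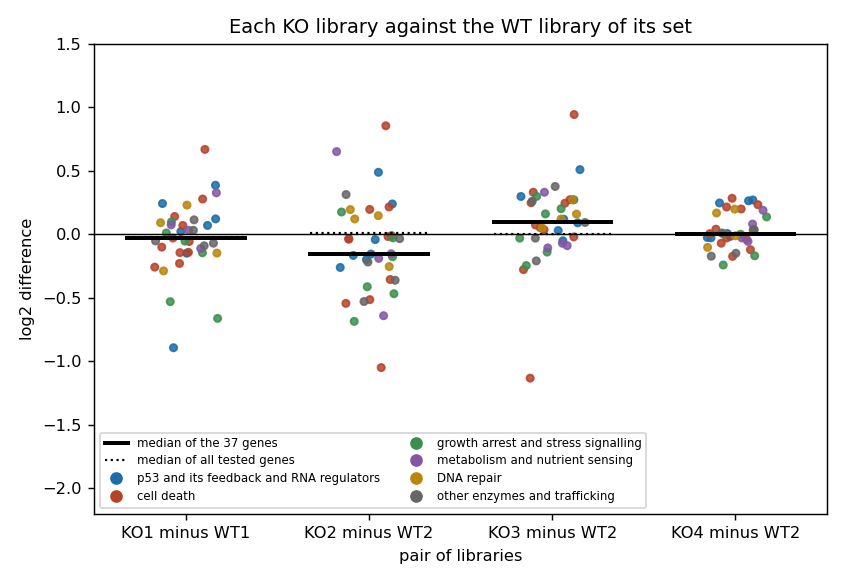
Log2 difference of each of the 37 genes (points, coloured by role) in each KO library against the WT library of its set. Thick lines are medians of the 37 genes and dotted lines medians of all tested genes. The 4 medians of the 37 lie between -0.15 and 0.094, on both sides of 0.

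The genes also divided the libraries within each genotype. Both KO1 and WT1 were above all other libraries for 24 of the 37 genes (64.9%), as were 30.7% of all tested genes. They were below for 7 (18.9%), as were 32.7% of all tested genes, so that 31 of 37 were on one side or the other, against 63.4%. A gap of at least 2-fold, the lower of KO1 and WT1 over the highest of the other 4, was present in 5 genes (13.5%; 4.24% of all tested genes). These were Rprm, Perp, Sulf2, Ak1 and Pmaip1. A gap of that size downward was present in 0 of 37, against 5.16% of all tested genes and 9.4% in either direction. The library sets were defined from these data and are no group of the study, so this is a description without a test. The marker sums given above move with the same division. They were higher in KO1 and WT1 for endothelial, contractile and mesothelial genes and lower for macrophage and epithelial genes. Single markers did not all follow the sums, as 5 of 8 mesothelial genes were higher in both. Fibroblast genes were split, with 2 of 8 higher and 4 lower.

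**Figure D3:**
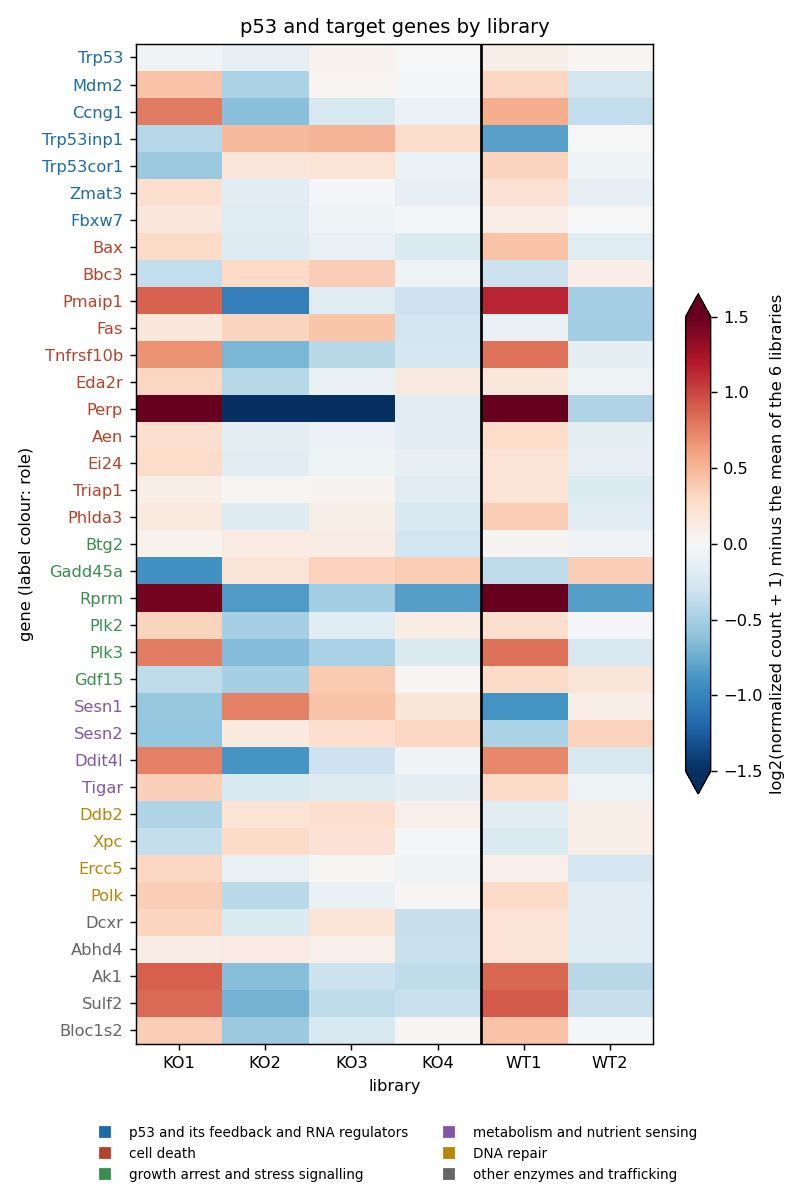
Heat map of the 37 genes (rows, coloured by role) in the 6 libraries (columns, KO left of WT), as log2(normalized count + 1) minus the gene's mean over the libraries, with the colour scale ending at 1.5 in either direction. The columns KO1 and WT1 resemble each other, high for 24 genes such as Rprm and Perp and low for 7 such as Sesn1 and Gadd45a, and the row of Trp53 is nearly even.

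Trp53, the gene of p53 (chr11:69580359-69591873, plus strand, GENCODE M21 on GRCm38), was among the most even genes of the list. It had 5034, 4789.7, 5445 and 5244 normalized counts in KO1 to KO4, against 5578 and 5331 in WT1 and WT2. Its coefficient of variation over the 6 libraries was 5.47%, the lowest of the 37, whose highest was 105%, for Perp. The means were 5128 ± 281 (SD, n = 4) in KO and 5454 ± 175 (SD, n = 2) in WT libraries, a log2 difference of -0.090 ± 0.10 with genotype alone and -0.089 ± 0.079 with the set as a term (SE; 95% interval -0.29 to 0.11; limma adjusted p = 0.999). A processed pseudogene, Trp53-ps, matches Trp53 at 97.7% over 353 nt, so a few reads may be shared. Transcript levels do not measure p53 protein, whose stability Mdm2 controls.

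Among the feedback genes, Mdm2 (chr10:117688875-117710758, minus strand) had 12667, 6794, 9590.0 and 9258 normalized counts in KO1 to KO4, against 11636 and 7795 in WT1 and WT2. Ccng1 (chr11:40748552-40755311, minus strand), which encodes cyclin G1, a partner of phosphatase 2A that acts back on the p53 and Mdm2 loop, had 39154, 14755, 19202 and 21328 normalized counts in KO1 to KO4, against 33074 and 17670.2 in WT1 and WT2. Ccng1 was the most highly expressed of the 37 per length of exon, at 6889.9 normalized counts per kb of annotated exon against 1893 for Mdm2 and 1295 for Trp53. For both feedback genes KO1 and WT1 were the highest libraries, KO2 was the lowest, and KO and WT overlapped. With the set as a term, Mdm2 differed by 0.12 ± 0.16 (95% interval -0.28 to 0.52) and Ccng1 by 0.12 ± 0.17 (log2, SE; -0.30 to 0.55). With genotype alone both differences were on the other side of 0, at -0.027 ± 0.28 and -0.13 ± 0.44.

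Trp53inp1 (chr4:11156431-11174379, plus strand), which encodes a nuclear cofactor of p53 that also acts in autophagy, had the lowest p of the 37 with the set as a term. It had 3492, 6580.0, 6677 and 5632 normalized counts in KO1 to KO4, against 2669.5 and 4687 in WT1 and WT2. Within the first set KO1 was above WT1, and within the second all 3 KO libraries were above WT2, while KO1 lay below WT2. Its log2 difference was 0.62 ± 0.35 with genotype alone (SE, limma adjusted p = 1.00) and 0.41 ± 0.093 with the set as a term (95% interval 0.17 to 0.64; limma unadjusted p = 0.00601, limma adjusted p = 0.999; DESeq2 adjusted p = 0.130). The difference was higher in 4 of 4 KO libraries against the WT of their set and did not pass adjustment over all genes.

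Zmat3, which encodes an RNA-binding zinc finger protein, had 7872, 5959, 6529 and 6161 in KO1 to KO4, against 7750.0 and 6129 in WT1 and WT2. Fbxw7, the substrate receptor gene of a ubiquitin ligase, had 1073, 841, 911 and 934 in KO1 to KO4, against 1022 and 944 in WT1 and WT2. Both varied little, by 0.021 and -0.018 on the log2 scale between genotypes with the set as a term. Trp53cor1, a long noncoding RNA induced by p53, was low, with 67.8, 113, 116 and 93.9 in KO1 to KO4, against 127 and 95.6 in WT1 and WT2; it shares 1645 exon bases with a noncoding gene on the opposite strand, and its 66 reads in KO1 alone give a counting error of 12.3%.

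Of the 11 cell death genes 0 passed the test between KO and WT. KO1 and WT1 were above the other 4 libraries for 9 and below for 1 (Bbc3), against 30.7% and 32.7% of all tested genes. Bax, the gene of the pore-forming protein of mitochondrial apoptosis, had 4406, 3166, 3356 and 3107 normalized counts in KO1 to KO4, against 4866 and 3187 in WT1 and WT2, and 192 of its exon bases lie also in a gene model on the same strand, Gm45808. The genes of 2 BH3-only proteins, which act upstream of Bax, differed from each other. Bbc3, the PUMA gene, had 467, 744, 785 and 575 in KO1 to KO4, against 486 and 649 in WT1 and WT2, lowest in KO1 and WT1. Pmaip1, the NOXA gene, had 2179.6, 577, 1037 and 947 in KO1 to KO4, against 2606 and 824 in WT1 and WT2, with KO1 and WT1 at least 2.10 times any other library. With the set as a term Pmaip1 differed by -0.099 ± 0.26 (log2, SE; 95% interval -0.76 to 0.56).

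The differences of 2 death receptor genes, Fas and Tnfrsf10b, had opposite signs with the set as a term. Neither gene passed, and the difference between them was not tested. Fas (chr19:34290666-34327772, plus strand), the receptor of Fas ligand, had 927, 1033, 1098 and 671 normalized counts in KO1 to KO4, against 764 and 570.3 in WT1 and WT2. KO4 was the lowest KO library and lay below WT1, so the genotypes overlapped. The log2 difference was 0.47 ± 0.25 with genotype alone and 0.52 ± 0.24 with the set as a term (SE; 95% interval -0.083 to 1.12; limma adjusted p = 0.999). Tnfrsf10b (chr14:69767472-69784411, plus strand), the mouse receptor of TRAIL, had 3269, 1278, 1537 and 1714 normalized counts in KO1 to KO4, against 3604 and 1863 in WT1 and WT2. Each KO library was below the WT of its set, by less than the distance between the sets. Its difference was -0.24 ± 0.14 with the set as a term (log2, SE; 95% interval -0.59 to 0.098), and Gm15574, which matches it at 97.5% over 405 nt, may share its reads. Eda2r, a receptor of ectodysplasin A2, had 4005, 2399.9, 3028 and 3565 in KO1 to KO4, against 3631 and 3069 in WT1 and WT2, with overlap between genotypes.

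Perp (chr10:18845020-18857073, plus strand), a membrane protein gene of apoptosis and of desmosomes in epithelia, was the most variable of the 37. It had 2703, 212, 199.8 and 535 normalized counts in KO1 to KO4, against 1699 and 439 in WT1 and WT2. KO1 and WT1 were at least 3.18 times any other library, and within the sets KO1 exceeded WT1 while KO2 and KO3 were below WT2. The log2 difference was -0.79 ± 1.19 with genotype alone and -0.11 ± 0.52 with the set as a term (SE; 95% interval -1.42 to 1.19), so neither fit bounds its change well. The summed mesothelial markers were also highest in KO1, at 82653 counts, and their part in the level of Perp was not tested.

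Phlda3, whose product blocks Akt at the membrane, was the cell death gene with the highest level per length of exon, at 2700.5 normalized counts per kb, and had 4590.2, 3628, 4413 and 3539 normalized counts in KO1 to KO4, against 5378 and 3712 in WT1 and WT2. It differed by -0.062 ± 0.12 (log2, SE, set as a term). Aen, an exonuclease gene, Ei24, the gene of an endoplasmic reticulum protein, and Triap1, the gene of a small mitochondrial inhibitor of apoptosis, had ranges of 2911 to 3867, 4267 to 5815 and 815 to 977 in KO libraries. In WT1 and WT2 they had 3944 and 2968, 5536 and 4379 and 1047 and 792. All 3 lay within -0.013 and 0.061 on the log2 scale between genotypes with the set as a term. Ei24 shares 324 exon bases with an antisense gene.

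**Figure D4:**
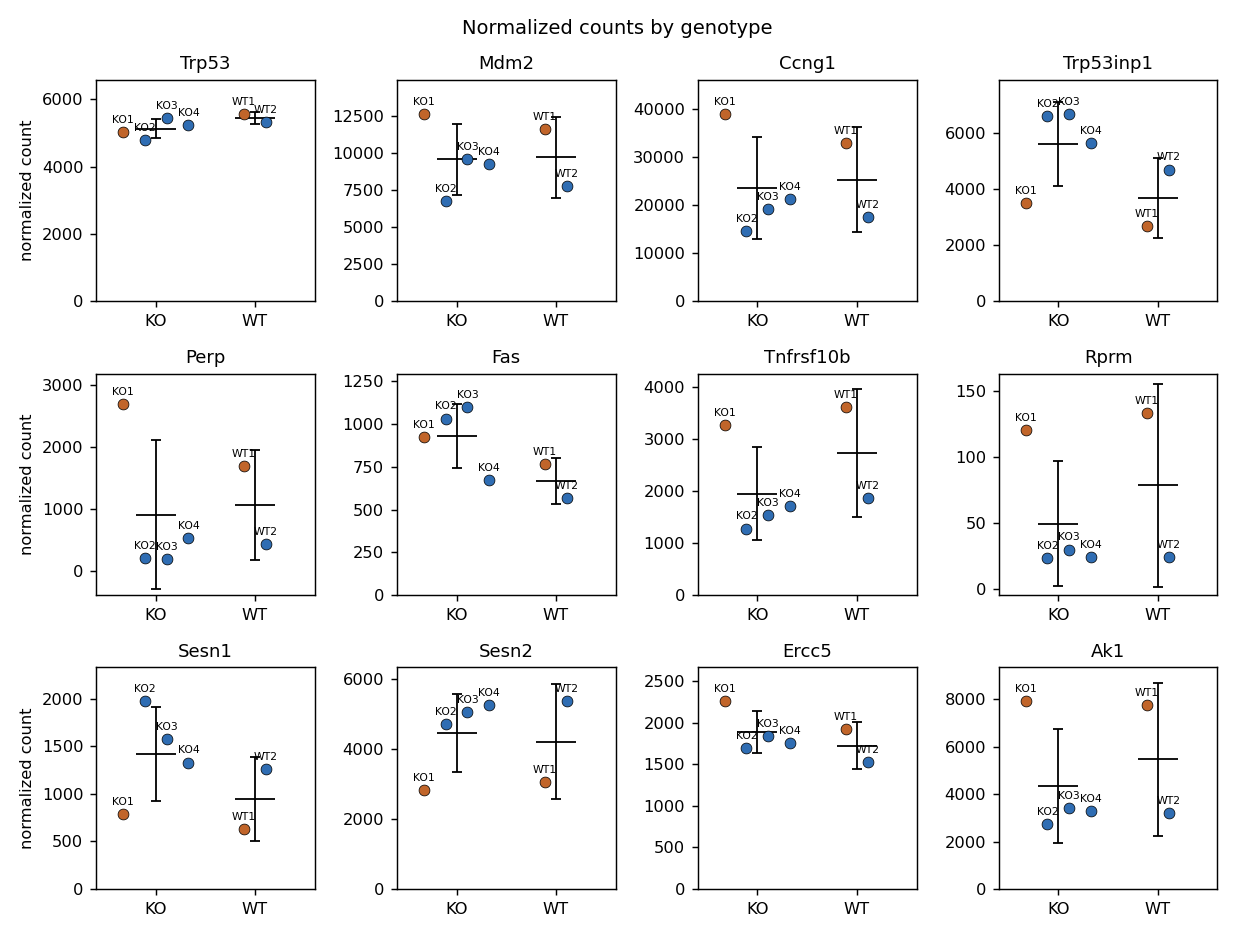
Normalized counts of 12 of the 37 genes in each library, KO left of WT in each panel, with orange points for KO1 and WT1 and blue points for the other 4 libraries. Black bars are the mean and SD of each genotype. Points of the 2 genotypes overlap in every panel. KO1 lies nearer to WT1 than to any other KO library in all panels but those of Trp53 and Fas.

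Of the 6 genes of growth arrest and stress signalling 0 passed between genotypes. KO1 and WT1 were above the other libraries for 3 and below for 1, against 30.7% and 32.7% of all tested genes. Btg2, an antiproliferative cofactor of mRNA decay, was the most abundant of the 6 per length of exon (3037 normalized counts per kb) and nearly even, with 8601, 9067, 8973 and 6788 normalized counts in KO1 to KO4, against 8531 and 8020.0 in WT1 and WT2. It differed by 0.024 ± 0.14 (log2, SE, set as a term; 95% interval -0.33 to 0.38). Rprm (chr2:54084093-54085552, minus strand), the gene of reprimo, a mediator of arrest before mitosis, had 120.2, 23.7, 30.01 and 24.2 normalized counts in KO1 to KO4, against 133 and 24.2 in WT1 and WT2. It had the lowest normalized counts of the 37 and the widest gap between the library sets, at least 4 times. The 2 genotypes were close within each set, with a difference of -0.0030 ± 0.23 with the set as a term (log2, SE; 95% interval -0.58 to 0.57) and -0.57 ± 0.94 with genotype alone. Its lowest library held 21 reads, for which counting alone gives an error of 21.8%.

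The polo-like kinase genes Plk2 and Plk3, both stress-induced, had their highest values in KO1 and WT1. Plk2 had 12801, 7184, 9019.9 and 10928 in KO1 to KO4, against 11953 and 9930.2 in WT1 and WT2, and Plk3 1721, 641, 720.2 and 876 in KO1 to KO4, against 1785 and 854 in WT1 and WT2. Gadd45a, a sensor of genotoxic stress, went the other way between the sets, with 1443, 3102, 3432 and 3519 in KO1 to KO4, against 2083 and 3502 in WT1 and WT2. KO1 was its lowest library, while KO2 and KO3 lay below WT2 and KO4 slightly above it. Gdf15, a secreted cytokine of cell stress and a common readout of p53, had 249, 229, 424 and 328 normalized counts in KO1 to KO4, against 394 and 369 in WT1 and WT2. It was lower in KO1 than in WT1 and higher in KO3 than in WT2, and differed by -0.39 ± 0.28 (log2, SE, set as a term; 95% interval -1.1 to 0.31).

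Of the 4 genes of metabolism and nutrient sensing, 0 passed between genotypes. In KO1 and WT1, 2 were highest and 2 lowest, as were 30.7% and 32.7% of all tested genes. Sesn1 (chr10:41809935-41908424, plus strand) and Sesn2 (chr4:132492032-132510501, minus strand) encode sestrins, which restrain mTORC1 when leucine is low, and both were lowest in KO1 and WT1. Sesn1 had 789.9, 1976, 1583 and 1330.3 normalized counts in KO1 to KO4, against 629 and 1257 in WT1 and WT2. Every KO library was above the WT library of its set, with a log2 difference of 0.60 ± 0.44 with genotype alone and 0.34 ± 0.17 with the set as a term (SE; 95% interval -0.084 to 0.77). Sesn2 had 2823, 4700.3, 5037 and 5255 normalized counts in KO1 to KO4, against 3047 and 5356 in WT1 and WT2. Here every KO library was below the WT library of its set, with a difference of -0.11 ± 0.072 with the set as a term (log2, SE; 95% interval -0.29 to 0.075), while the difference with genotype alone was 0.100 ± 0.34, on the other side of 0. The sestrin genes therefore had opposite signs with the set as a term, and neither passed; the difference between them was not tested. Ddit4l, another mTORC1 inhibitor gene, had 1027, 329, 489.6 and 586 in KO1 to KO4, against 1004 and 514 in WT1 and WT2, highest in KO1 and WT1. Tigar, a fructose bisphosphatase gene that slows glycolysis, had 1058, 702, 725 and 751 in KO1 to KO4, against 1004 and 780.0 in WT1 and WT2, in the same order of sets.

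The 4 DNA repair genes had a median log2 difference of 0.0076 between KO and WT with the set as a term, and 0 of them passed. Ercc5 (chr1:44147744-44181260, plus strand), the endonuclease XPG of nucleotide excision repair, had 2258, 1689, 1842 and 1750.2 normalized counts in KO1 to KO4, against 1923 and 1524 in WT1 and WT2. Every KO library exceeded the WT of its set, with 0.13 ± 0.17 by genotype alone and 0.22 ± 0.071 with the set as a term (log2, SE; 95% interval 0.038 to 0.39; limma unadjusted p = 0.0257, limma adjusted p = 0.999). The damage-recognition genes Ddb2 and Xpc were both lowest in KO1 and WT1. Ddb2 had 160.2, 255, 262 and 232 in KO1 to KO4, against 196 and 234 in WT1 and WT2, and 652 of its exon bases overlap Acp2 on the other strand. Xpc had 927, 1452, 1379 and 1181 in KO1 to KO4, against 1027 and 1267 in WT1 and WT2. Polk, a polymerase that copies past lesions, was the highest of the 4 per length of exon at 348 normalized counts per kb, with 2462, 1429.9, 1769 and 1916 in KO1 to KO4, against 2309 and 1704 in WT1 and WT2 and a log2 difference of 0.031 ± 0.14 (SE, set as a term), or -0.094 ± 0.24 with genotype alone.

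The remaining 5 genes encode enzymes and a trafficking subunit. Between genotypes 0 of 5 passed, and 4 were highest in KO1 and WT1, as were 30.7% of all tested genes. Ak1, the cytosolic adenylate kinase gene, had 7924, 2748, 3412 and 3277 normalized counts in KO1 to KO4, against 7746 and 3196 in WT1 and WT2. Sulf2, which encodes an enzyme that removes 6-O-sulfate from heparan sulfate outside the cell, had 7464, 2539, 3196 and 3285 normalized counts in KO1 to KO4, against 7831 and 3261 in WT1 and WT2. In both genes KO1 and WT1 were more than 2-fold above every other library, and the genotypes within each set were close. The differences with the set as a term were -0.0043 ± 0.11 for Ak1 (95% interval -0.27 to 0.27) and -0.10 ± 0.13 for Sulf2 (log2, SE; -0.42 to 0.21), and with genotype alone -0.33 ± 0.53 and -0.43 ± 0.53. Sulf2 shares 154 exon bases with Ncoa3 on the opposite strand. Dcxr, the xylulose reductase gene, and Abhd4, a lipase gene, had 832 to 1321 and 4113 to 5667 counts in KO libraries. Their counts in WT1 and WT2 were 1219.6 and 937 and 5972 and 4558, with KO4 the lowest library in both. Bloc1s2, a subunit gene of lysosome-related organelle biogenesis, had 689, 363, 454 and 537 in KO1 to KO4, against 714 and 524 in WT1 and WT2, and a processed pseudogene matches it at 99.8% over 432 nt, which makes its count uncertain.

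Other genes of the pathway, listed by role and not by how they moved, also had 0 calls. Across limma, edgeR and DESeq2 in the 2 designs, 0.00657% to 0.328% of all tested genes were called, so 0 in lists of this size is near that share. An unadjusted limma p under 0.05 was reached by 0.939% of all tested genes with genotype alone and 3.51% with the set as a term. Of 20 regulators of p53, 18 reached the mean of 10, with 0 called higher and 0 lower by limma with genotype alone or with the set as a term, and 0 by edgeR and DESeq2 in either design; 0 and 0 had an unadjusted limma p under 0.05 in the 2 designs. Their median log2 difference with the set as a term was -0.0081, against -0.0027 over all tested genes. Mdm4, the partner of Mdm2 that inhibits p53, had 2014, 3513, 3695 and 3835 in KO1 to KO4, against 1937 and 3674 in WT1 and WT2. Cdkn2a, one of whose products, ARF, inhibits Mdm2, had 4385 and 4585 in KO1 and WT1, against 327 to 717 in the other 4 libraries. Trp63 and Trp73, the genes of the p53 relatives, stayed at or below 5.14 counts in every library and were not tested. Of 20 further p53 targets all 20 reached the mean, with 0 called in either direction by the same 6 fits and a median of 0.039 with the set as a term. Sfn, which encodes an epithelial 14-3-3 protein, was the only one with an unadjusted limma p under 0.05 in that fit, and 0 were under it with genotype alone. It had 12.3, 69.3, 15.4 and 53.5 in KO1 to KO4, against 127 and 86.4 in WT1 and WT2, with KO minus WT at -1.99 ± 0.78 on the log2 scale (SE; adjusted p = 0.999 in limma). In the further targets, KO1 and WT1 were above the other 4 libraries for 11 of 20 genes and below for 3. The regulators leaned the other way, with 5 of 18 above and 8 below. Of all tested genes 30.7% were above and 32.7% below.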

How the data were processed

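The authors deposited 1 table of normalized counts (a count signal per gene and library), which are read counts divided by a size factor per library. The submitters' processing notes name Trimmomatic 0.36, STAR 2.6.0c, featureCounts (Subread 1.6.1) and the build GRCm38.p6, while the design text has Trimmomatic 0.32, STAR 2.4.2a, HTSeq with GENCODE M17 annotation and DESeq2 1.10.1. Neither the choice among these for the table nor strand use in counting was given in the sources used here. Every value was a whole multiple of its library's smallest (100% within 1e-06 of a read), so reads were recovered for count tests.

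The main test was limma 3.58.1 (eBayes with a mean trend, R 4.3.3) on log2(normalized count + 1), which understates the change of low genes, over 15229 genes with a mean of at least 10, Benjamini-Hochberg adjusted at 0.05. Same-genotype libraries all differed beyond sampling noise (chi-square per gene 28.4 to 438). At the minimum mean, the counting coefficient of variation is 31.6%. Alternatives were other pseudocounts, filters and TMM scaling, no trend, the count tools edgeR 4.0.16 and DESeq2 1.42.0, the number in the title as a block, the library set as a term, the larger set alone, and each library left out. Fits were also run on simulated data, whose outcome is not given here and was not used for the results above. Coordinates, exon lengths and overlaps are from GENCODE M21 (GRCm38), copies from blastn at 95% identity over at least 300 nt, and promoters from RefSeq.

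The members, lists, library sets and tests were chosen with earlier results of these data known. Full statistics go to Trp53, to the gene highest per kb and the one with the largest difference in each role, and to any called gene. Fas, Tnfrsf10b, Mdm2, Pmaip1 and Gdf15, the other genes given with single values, and the members of the wider pathway lists given by name were singled out after their values were seen.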

Additional observations from a re-analysis of the deposited data

Results flagged for a closer look

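Among the 4 KO libraries, 1 library lay far from the others for 7 of the 37 genes (18.9%), measured as the gap to its neighbour over the whole range of the 4, beyond Dixon's 95% critical value. Chance flags about 1 in 20 such groups, and 13.8% of all tested genes were beyond it here. KO1 was the distant library in 6 of the 7, with 2703 counts for Perp, 3867 counts for Aen, 120.2 counts for Rprm, 1058 counts for Tigar, 7924 counts for Ak1 and 7464 counts for Sulf2. For these 6 genes WT1 stood beside KO1, above KO2, KO3, KO4 and WT2. For Abhd4 KO4 was the distant library, with 4113 counts, and WT2 was its nearest library at 4558.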

How the results depend on the processing

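No p53 gene and no gene of the wider pathway lists was called under any of the 19 alternatives. The number of all genes called was 1 in the main test, 2 with a pseudocount of 5, 7 in DESeq2, 2 in edgeR and 50 in DESeq2 once the library set was a term, and 0 in the 4 libraries of the larger set alone; leaving out 1 library at a time gave 0 to 2. The median of the 37 genes ran from -0.29 to 0.10 with 1 library left out. With the title number as a replicate block, 0 genes were called and the median was -0.080; 5 of the 37 genes (3 higher and 2 lower in KO) had an unadjusted p under 0.05, against 781 of all 15229, as did 10 of 10 dividing-cell genes, all lower in KO; the numbers pair only KO1 with WT1 and KO2 with WT2, whose deviations from their genotype means correlated at 0.841 and 0.562 across genes, and the labels do not say that a number marks a shared source. Of 342 values of 18 genes with full statistics under these alternatives, 303 kept their sign and 39 did not; all differences below were uncalled, and the cause was not tested. With the title number as a replicate block, the log2 difference was -0.15 for Sesn2. With the library set as a term in limma, the log2 difference was 0.12 for Ccng1, 0.12 for Mdm2, 0.031 for Polk, -0.11 for Sesn2. With that term in edgeR, the log2 difference was 0.0068 for Ak1, 0.14 for Ccng1, 0.14 for Mdm2, 0.045 for Polk, -0.097 for Sesn2. With that term in DESeq2, the log2 difference was 0.00033 for Ak1, 0.13 for Ccng1, 0.13 for Mdm2, 0.038 for Polk, -0.10 for Sesn2. With the 4 libraries of the larger set alone, the log2 difference was 0.044 for Ccng1, 0.12 for Mdm2, 0.049 for Phlda3, 0.0064 for Pmaip1, 0.091 for Rprm, -0.10 for Sesn2. Leaving out 1 library at a time, the difference ran from -0.97 to 0.31 for Ak1, from -0.039 to 0.10 for Btg2, from -0.58 to 0.32 for Ccng1, from -0.039 to 0.30 for Ercc5, from -0.32 to 0.26 for Mdm2, from -1.77 to 0.18 for Perp, from -0.42 to 0.11 for Phlda3, from -1.30 to 0.36 for Pmaip1, from -0.31 to 0.13 for Polk, from -1.78 to 0.63 for Rprm, from -0.31 to 0.51 for Sesn2 and from -1.06 to 0.20 for Sulf2. Depth does not limit the abundant genes, while Rprm and Trp53cor1 carry counting errors above 10%.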
